A study of Mus musculus with 36 samples.

Results

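*Psca* and *Krtap17-1* are mouse genes whose lung transcripts changed with ozone differently in wild-type (WT) mice and in mice lacking *Notch3* or *Notch4*. They were chosen on those measured responses in the same 36 arrays, so their ozone changes and the differences of those changes between genotypes are described with their errors and no p-value. All probe sets with a single gene symbol among these names were taken from the platform annotation. Each gene has 1 probe set (1451258_at for *Psca* and 1453523_at for *Krtap17-1*), and so the 2 genes are 2 of 45037 probe sets tested and 2 of the 18193 genes with a probe set of their own.

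Left lungs of 36 male mice 7 to 13 weeks of age each gave the RNA for 1 Affymetrix 430 2.0 array. WT mice (B6129SF1/J), *Notch3-/-* mice (allele Notch3tm1Grid) and *Notch4-/-* mice (allele Notch4tm1Grid) breathed filtered air or 0.3 ppm ozone by continuous whole-body inhalation for 6, 24 or 48 hr. There were 3 mice in each of the 12 groups, and each genotype had 1 air group, which all of its ozone times share. The deletions are present in every cell of the animal. Both knockout lines have a mixed strain background and WT mice are first-generation hybrids, so knockout and strain background cannot be told apart in any comparison between genotypes.

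The values are log2 levels relative to the median of the probe set over the 36 arrays. A level of 0 for *Psca* therefore lies among the 24 knockout arrays, and brightness or detection of a transcript cannot be read, nor can the lung label be checked against the brightness of lung markers. Both *Notch3* probe sets were lower in *Notch3-/-* than in WT mice, 1421965_s_at by -3.94 log2 (SE 0.12, limma adjusted p = 7.5e-20) and 1421964_at by -2.32 (SE 0.08, adjusted p = 1.6e-18). Of the 3 *Notch4* probe sets, 1449146_at was lower in *Notch4-/-* mice by -3.75 (SE 0.16, adjusted p = 1.6e-16) and 1456263_at by -0.74 (SE 0.07, adjusted p = 4.1e-08), and 1436901_at, at -0.08 (SE 0.07, adjusted p = 0.62), did not pass. *Notch4-/-* air replicates 1 and 2 stood apart on 1449146_at, at -1.97 and -1.40, between the WT mice (-0.38 to 0.58) and the 9 *Notch4-/-* ozone mice (-4.31 to -3.42), while air replicate 3 was at -3.69. Most values of *Psca* and *Krtap17-1* that rest on *Notch4-/-* air mice, and part of such calls on other genes, are therefore also given without those 2 mice. A call printed without that second value may still depend on them.

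*Psca* (prostate stem cell antigen) is a small protein of the Ly6/uPAR family that is held on the cell surface by a lipid anchor. It is known from epithelia such as those of the stomach, bladder and prostate, and several proteins of its family bind nicotinic acetylcholine receptors and alter their activity. Krtap17-1 belongs to the keratin-associated proteins, which cross-link the keratin filaments of the hair shaft. Keratins themselves are the intermediate filaments of all epithelia: Krt8, Krt18, Krt19 and Krt7 form the filaments of simple epithelia such as those of lung, and other keratins those of stratified epithelia and of hair. Notch3 and Notch4 are cell surface receptors that, once bound by a ligand on a neighbouring cell, release a fragment that acts in the nucleus, and they are best known in the vascular wall. In a homogenate of whole lung, fewer cells of a type and less RNA per cell cannot be told apart.

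*Psca* was high in every WT mouse and rose further in WT mice exposed to ozone for 48 hr, whereas every knockout mouse lay below the lowest WT mouse at every time. In WT air mice the *Psca* level was 1.48, 1.65 and 1.20 (mean 1.44, SD 0.23). After 6 hr of ozone it was 1.51, 1.18 and 1.70, and after 24 hr 1.79, 1.75 and 2.05. After 48 hr it reached 3.11, 3.10 and 2.92 (mean 3.04, SD 0.11). The 3 WT mice exposed for 48 hr were the highest of all 36 mice, those exposed for 24 hr lay above all WT air mice, and those exposed for 6 hr overlapped with the air mice.

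In *Notch3-/-* mice the *Psca* level was 0.15, -0.01 and 0.00 in air, and -0.39, -0.42 and -0.25 after 6 hr of ozone. It was 0.00, -0.13 and -0.44 after 24 hr, and -0.08, 0.01 and 0.06 after 48 hr. The 6 hr mice lay below all *Notch3-/-* air mice, and the 24 and 48 hr mice overlapped with them. In *Notch4-/-* mice the level was -0.34, 0.06 and -0.12 in air and -0.85, -0.27 and -0.35 after 6 hr. It was 0.00, -0.31 and -0.38 after 24 hr, and -0.14, -0.09 and 0.03 after 48 hr. Each *Notch4-/-* ozone group overlapped with its air group. The 12 WT mice spanned 1.18 to 3.11 and the 24 knockout mice -0.85 to 0.15, with no overlap. Such a separation of all WT arrays from all knockout arrays, in either direction, was found for 0.162% of probe sets, and a separation of the WT 48 hr arrays from the other 33 arrays for 0.0933%. The latter share rests on the ozone response *Psca* was chosen on, and it describes that choice.

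**Figure D1:**
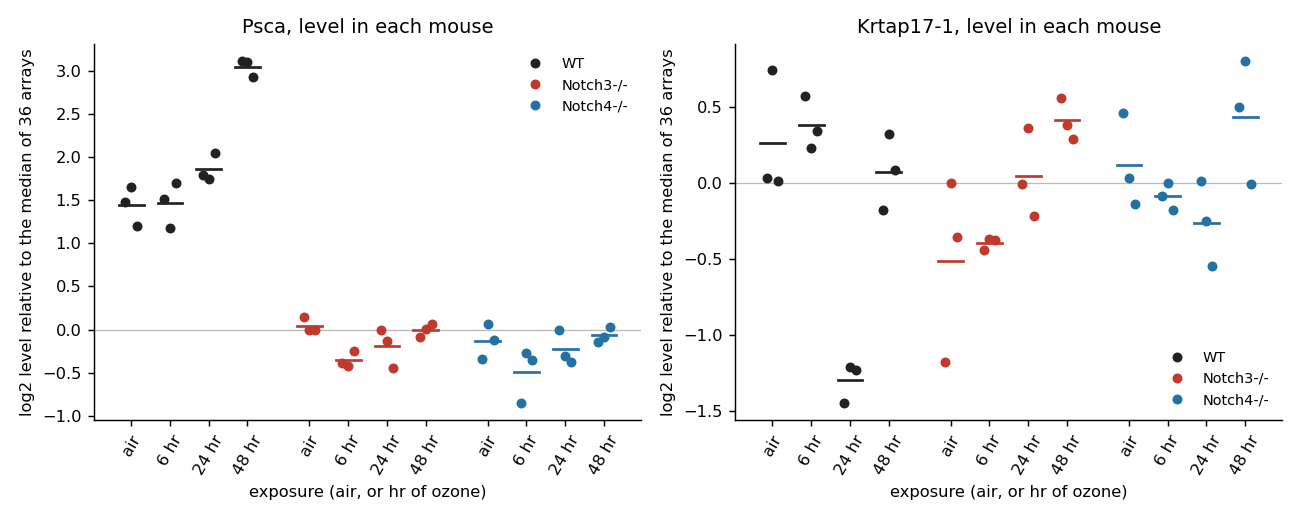
Log2 level of *Psca* (left) and *Krtap17-1* (right) in each of 36 mice, relative to the median of the probe set over all arrays, by genotype and exposure; points are mice and bars are the means of 3 mice. All WT mice lie above all knockout mice for *Psca*, with the 48 hr WT mice at 2.92 to 3.11, and the 24 hr WT mice lie lowest for *Krtap17-1*, at -1.45 to -1.21.

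Placed in order of their mean *Psca* level, the groups ran from WT 48 hr (3.04) through WT 24 hr (1.86) to WT 6 hr (1.46) and WT air (1.44). The neighbours in this order differed by more than their pooled SD and without overlap between 48 and 24 hr and between 24 and 6 hr, but WT 6 hr and WT air differed by 0.02, less than their SD of 0.25. A gap of 1.40 followed before *Notch3-/-* air (0.05). None of the 8 knockout groups, from 0.05 down to -0.49 in *Notch4-/-* mice after 6 hr, differed from its neighbour in the order by more than the pooled SD of the pair.

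The ozone change of *Psca* in WT mice was 0.02 after 6 hr (SE 0.15), 0.42 after 24 hr (SE 0.15) and 1.60 after 48 hr (SE 0.15; 95% interval 1.30 to 1.91), the last a 3.04-fold higher level than in air. It was the 89th highest 48 hr change of WT mice among 45037 probe sets, a rank that follows in part from the choice of the gene. In *Notch3-/-* mice the changes were -0.40, -0.24 and -0.05 at the same times, and in *Notch4-/-* mice -0.36, -0.09 and 0.07, each with an SE of 0.15. The 48 hr interval ran from -0.36 to 0.26 in *Notch3-/-* and from -0.23 to 0.38 in *Notch4-/-* mice, so a measured rise of the size seen in WT mice lies outside both. Whether the probe set detects *Psca* in the knockout mice cannot be read from centred values. A strain difference in the sequence under the probe set was not tested. Without *Notch4-/-* air replicates 1 and 2 the *Notch4-/-* changes were -0.37, -0.10 and 0.06 (SE 0.21).

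The 48 hr response of *Psca* was lower in *Notch3-/-* than in WT mice by -1.65 (SE 0.21; 95% interval -2.09 to -1.22) and in *Notch4-/-* than in WT mice by -1.53 (SE 0.21; interval -1.96 to -1.10). After 24 hr the corresponding differences were -0.66 and -0.51 (SE 0.21). After 6 hr they were -0.42 (interval -0.86 to 0.01) and -0.38 (interval -0.81 to 0.06). The comparisons share the same WT mice, and the 3 times share the air mice. Between the knockout lines the response differed by -0.05, -0.15 and -0.12 at 6, 24 and 48 hr (SE 0.21), and the 48 hr interval was -0.56 to 0.31. With *Notch4-/-* air replicates 1 and 2 left out, the *Notch4-/-* differences from WT mice were -0.39, -0.52 and -1.54 at 6, 24 and 48 hr, and those between the knockout lines -0.03, -0.14 and -0.11 (SE 0.26). Quantile normalization of the arrays once more turned the 6 hr change of WT mice to -0.29 and brought the 48 hr change to 1.19 and the 48 hr differences to -1.24 in *Notch3-/-* and -1.08 in *Notch4-/-* mice.

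**Figure D2:**
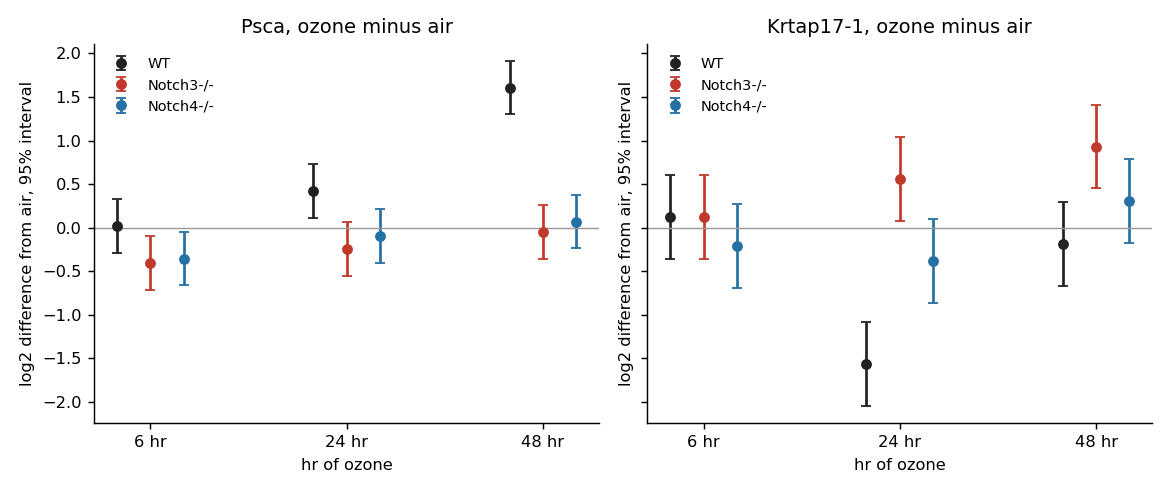
Log2 difference between ozone and air mice of the same genotype (vertical axis) for *Psca* and *Krtap17-1* after 6, 24 and 48 hr of ozone (horizontal axis); points are differences of means of 3 mice and bars are 95% intervals from the limma fit. WT *Psca* is at 1.60 after 48 hr and WT *Krtap17-1* at -1.56 after 24 hr, while the *Psca* changes of both knockout lines at 48 hr are near 0.

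The genotype difference averaged over the 4 exposures was tested. In this balanced design its error is uncorrelated with those of the ozone changes on which *Psca* was chosen. The average does include the ozone times, so part of its size is the WT rise on which the gene was chosen. Averaged over air and the 3 ozone times, *Psca* was lower in *Notch3-/-* than in WT mice by -2.08 log2 (SE 0.07, limma adjusted p = 3.9e-18), a 4.23-fold difference, against 5.68% of probe sets called in that comparison. In *Notch4-/-* mice it was lower by -2.18 (SE 0.07, limma adjusted p = 1.5e-18), a 4.54-fold difference, against 5.76% called. These were the 14th and the 8th lowest differences of all probe sets, and they kept an adjusted p under the threshold under every alternative. Their ranks follow in part from the choice of the gene, and their p-values are no separate support for its ozone response. A genotype difference was present in air, at -1.40 in *Notch3-/-* and -1.58 in *Notch4-/-* mice (SE 0.15), before any exposure to ozone. The knockout lines differed from each other by 0.10 (SE 0.07; 95% interval -0.05 to 0.26). Leaving out *Notch4-/-* air replicates 1 and 2 gave an average of -2.18 in *Notch4-/-* mice (SE 0.08, limma adjusted p = 2.3e-16) and an air difference of -1.56 (SE 0.21).

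Several genes of airway secretory and mucous cells also differed between the genotypes over all exposures, in the opposite direction to *Psca*. In *Notch3-/-* mice 12 of 16 were higher than in WT mice, by limma, with a median of 1.70 over the 16, and 0 were lower, and in *Notch4-/-* mice 7 of 16 were higher, with a median of 1.34, and 0 were lower. Of all 18193 genes 6.97% and 6.67% passed in either direction, with medians of 0.01 and 0.00. *Cyp2f2*, *Scgb1a1*, *Scgb3a2* and *Foxa3* of the list passed in neither line, with *Cyp2f2* at -0.03 and -0.09. The mean level of the 16 genes also varied among like mice, from -1.02 to 1.58 in *Notch3-/-* air mice. *Bpifa1*, a secreted airway surface protein, was higher in *Notch3-/-* mice by 4.61 (SE 1.06, limma adjusted p = 0.0058), and *Clca1*, a secreted product of mucous cells, by 4.49 (SE 0.76, adjusted p = 0.00018). In *Notch4-/-* mice *Clca1* was higher by 2.90 (SE 0.76, adjusted p = 0.018) and *Ltf*, the iron-binding protein lactoferrin, by 2.42 (SE 0.49, adjusted p = 0.0017). Without *Notch4-/-* air replicates 1 and 2, *Muc5ac*, *Muc5b* and *Tff2* of these 7 genes no longer passed (adjusted p = 0.13, 0.13 and 0.05). The part of these cells in the *Psca* difference was not tested.

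Averaged over the 3 genotypes, the ozone change of *Psca* was -0.25 after 6 hr, 0.03 after 24 hr and 0.54 after 48 hr (SE 0.09). These averages hold the WT changes on which the gene was chosen and carry no p-value.

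*Krtap17-1* fell in WT mice after 24 hr of ozone and was back among the other mice after 48 hr. In WT air mice its level was 0.03, 0.74 and 0.01 (mean 0.26, SD 0.41), and after 6 hr of ozone 0.57, 0.23 and 0.34. After 24 hr it was -1.45, -1.21 and -1.23 (mean -1.30, SD 0.14), and after 48 hr -0.18, 0.32 and 0.08. The 3 WT mice exposed for 24 hr were lower than each of the other 33 mice, of which the lowest was at -1.18, and the WT 6 and 48 hr mice overlapped with air. A group of WT 24 hr arrays entirely above or below the other 33 arrays was found for 0.255% of probe sets. *Krtap17-1* was chosen on its ozone responses, so this share describes the choice and is no support for it.

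In *Notch3-/-* mice the *Krtap17-1* level was -1.18, 0.00 and -0.36 in air, and -0.44, -0.37 and -0.38 after 6 hr. It was -0.01, 0.36 and -0.22 after 24 hr, and 0.56, 0.38 and 0.29 after 48 hr. The 48 hr mice lay above all *Notch3-/-* air mice, the other times overlapped with air, and the air mice spread widely because replicate 1 was low. In *Notch4-/-* mice the level was 0.46, 0.03 and -0.14 in air and -0.09, 0.00 and -0.18 after 6 hr. It was 0.01, -0.25 and -0.55 after 24 hr, and 0.50, 0.80 and -0.01 after 48 hr. All *Notch4-/-* ozone groups overlapped with air.

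The order of the group means of *Krtap17-1* ran from 0.43 in *Notch4-/-* mice after 48 hr to -0.51 in *Notch3-/-* air mice with no step larger than the pooled SD of the neighbours. The last step, of 0.78 down to WT 24 hr at -1.30, exceeded the pooled SD of 0.44 with no overlap. The SD within groups was 0.303 for *Krtap17-1* and 0.186 for *Psca*, against a median of 0.171 over all probe sets, so *Krtap17-1* varied among like mice more than 87.9% of probe sets. The levels of *Psca* and *Krtap17-1* over the 36 arrays had a Pearson r of -0.09.

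The ozone change of *Krtap17-1* in WT mice was 0.12 after 6 hr, -1.56 after 24 hr (95% interval -2.04 to -1.08) and -0.19 after 48 hr, each with an SE of 0.23. The 24 hr change is a 2.95-fold lower level and was the 22nd lowest 24 hr change of WT mice among all probe sets. That rank follows in part from the choice of the gene on its ozone responses. In *Notch3-/-* mice the changes were 0.12, 0.56 and 0.93, and in *Notch4-/-* mice -0.21, -0.38 and 0.31 (SE 0.23). The *Notch4-/-* change at 24 hr has the sign of the WT change, with an interval from -0.86 to 0.10. With *Notch4-/-* air replicates 1 and 2 left out, the *Notch4-/-* changes were 0.05, -0.13 and 0.57 (SE 0.33).

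The 24 hr response of *Krtap17-1* differed from that of WT mice by 2.11 in *Notch3-/-* (SE 0.33; 95% interval 1.44 to 2.79) and by 1.18 in *Notch4-/-* mice (SE 0.33; interval 0.50 to 1.86). After 48 hr the differences were 1.12 and 0.50, and after 6 hr 0.00 and -0.32. The 2 knockout lines differed at 24 hr in the response by 0.94 (SE 0.33; interval 0.26 to 1.61), *Notch3-/-* being higher, and at 6 and 48 hr by 0.32 and 0.61. The *Notch3-/-* values rest in part on air replicate 1: without that mouse the 24 hr change was 0.23, the 48 hr change 0.60, the 24 hr difference from WT mice 1.78 and the 24 hr difference between the knockout lines 0.60. The differences of *Notch4-/-* from WT mice were -0.07, 1.43 and 0.76 at 6, 24 and 48 hr once *Notch4-/-* air replicates 1 and 2 were left out, and those between the knockout lines 0.07, 0.68 and 0.36 (SE 0.40).

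Averaged over exposures, *Krtap17-1* did not pass between genotypes, with 0.03 for *Notch3-/-* minus WT (SE 0.12, limma adjusted p = 0.94; 95% interval -0.21 to 0.27) and 0.19 for *Notch4-/-* minus WT (SE 0.12, adjusted p = 0.41; interval -0.05 to 0.43). The latter was 0.13 (SE 0.13, adjusted p = 0.63) when *Notch4-/-* air replicates 1 and 2 were left out. Averaged over genotypes its ozone change was 0.01 after 6 hr, -0.46 after 24 hr and 0.35 after 48 hr (SE 0.14), given with no p-value because the 24 hr average carries the WT fall on which the gene was chosen, beside 0.56 and -0.38 in the knockout lines.

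The genes with levels most like those of *Psca* over the 36 arrays were *Fbp2*, the fructose bisphosphatase of muscle (r = 0.95), *Tmem87a*, a Golgi membrane protein (0.92), *Bloc1s6*, a subunit of a complex that builds lysosome-related organelles (0.91), *Gbp2b*, an interferon-induced guanylate-binding protein (0.91), and *Paip1*, which binds the poly(A)-binding protein (0.91). The arrays are shared by all of these values, and 8 probe sets had an r over 0.9. In each of the 5 genes all 12 WT mice lay above all 24 knockout mice, a separation that follows from their choice by likeness to *Psca* and is given with no test. Over all exposures *Gbp2b* differed from WT mice by -5.19 in *Notch3-/-* and -5.14 in *Notch4-/-* mice (SE 0.11), and *Paip1*, the least of the 5, by -1.21 and -1.30.

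The 48 hr change in WT mice was 1.18 for *Fbp2* (SE 0.18) and lay between -0.22 (*Gbp2b*, SE 0.22) and 0.26 (*Bloc1s6*, SE 0.12) for the other 4. Within the 12 WT arrays alone, where the ozone course and differences among like mice are left, r with *Psca* was 0.79 for *Fbp2*, 0.49 for *Paip1*, 0.31 for *Tmem87a*, 0.27 for *Bloc1s6* and -0.08 for *Gbp2b*. Within the 24 knockout arrays it lay between -0.33 and 0.14 for the 5 genes.

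Within the WT arrays the gene nearest to *Psca* was *Krt8* (r = 0.98), the keratin of simple epithelia, a gene named here after its values were seen and picked also by the rule for the keratin list. After 48 hr *Krt8* stood at 0.50 to 0.78 in WT, 0.36 to 0.50 in *Notch3-/-* and 0.54 to 0.65 in *Notch4-/-* mice, and in air at -0.29 to -0.07, -0.48 to 0.04 and -0.38 to 0.18. Its 48 hr change was 0.83 in WT mice (SE 0.14). It rose in *Notch3-/-* mice by 0.70 (SE 0.14, limma adjusted p = 0.0046; 2.46% of probe sets called) and in *Notch4-/-* mice by 0.67 (SE 0.14, adjusted p = 0.012; 1.75% called), the latter 0.98 (SE 0.19, adjusted p = 0.0045) without *Notch4-/-* air replicates 1 and 2. The WT mice exposed for 48 hr had both the highest *Psca* and the highest *Krt8* levels of their genotype, and the knockout lines had the *Krt8* rise beside *Psca* changes of -0.05 and 0.07.

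The genes most like *Krtap17-1* were less close: *Mfsd6l*, a transporter-like membrane protein (r = 0.68), *Clba1* (0.67), *Pla2g4a*, a cytosolic phospholipase that frees arachidonic acid (0.66), *Mrpl1*, a mitochondrial ribosomal protein (0.66), and *Tmem107*, a protein of the base of the cilium (0.65). No probe set reached an r over 0.9 with *Krtap17-1*, and 30 were over 0.6. *Tmem107* had the highest r within the WT arrays, 0.95, and its 24 hr change in WT mice was -0.67 (SE 0.21). The 24 hr changes of the other 4 genes in WT mice were -0.20 to -0.40.

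*Psca* lies on chromosome 15 and *Krtap17-1* on chromosome 11, and their measured neighbours are given in RefSeq gene order (assembly GRCm38.p6) without coordinates. Beside *Psca*, *Jrk*, which encodes a DNA-binding protein, was lower in *Notch3-/-* mice by -0.42 (SE 0.06, limma adjusted p = 4.0e-05) and in *Notch4-/-* mice by -0.29 (SE 0.06, adjusted p = 0.0042) over all exposures, the latter -0.26 (SE 0.07, adjusted p = 0.030) without *Notch4-/-* air replicates 1 and 2. The other 5 neighbours, *Arc*, *4933427E11Rik*, *Them6*, *Slurp1* and *Lypd2*, did not pass in either line, with differences from -0.16 (*Them6*) to 0.63 (*Lypd2*, SE 0.19, adjusted p = 0.052). The genes next to *Psca* on either side, *4933427E11Rik* and *Them6*, differed by 0.02 and -0.13 in *Notch3-/-* and by 0.08 and -0.16 in *Notch4-/-* mice. *Lypd2*, a Ly6/uPAR gene, fell with ozone averaged over genotypes after 24 hr by -0.84 (SE 0.22, adjusted p = 0.024; 5.29% of probe sets called), a time at which *Psca* had an average of 0.03.

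Around *Krtap17-1* none of *Gm11559*, *Gm11567*, *Krtap31-1*, *Krt33a*, *Krt33b* and *Krt34* passed between genotypes, with averaged differences from -0.02 to 0.16. *Krtap31-1* fell with ozone averaged over genotypes after 6 hr by -0.42 (SE 0.09, limma adjusted p = 0.0082; 2.9% of probe sets called) and *Krt33b*, a hair keratin, after 24 hr by -0.28 (SE 0.08, adjusted p = 0.042), while *Krtap17-1* had 0.01 and -0.46 at these times. No neighbour of either gene passed in a response difference.

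**Figure D3:**
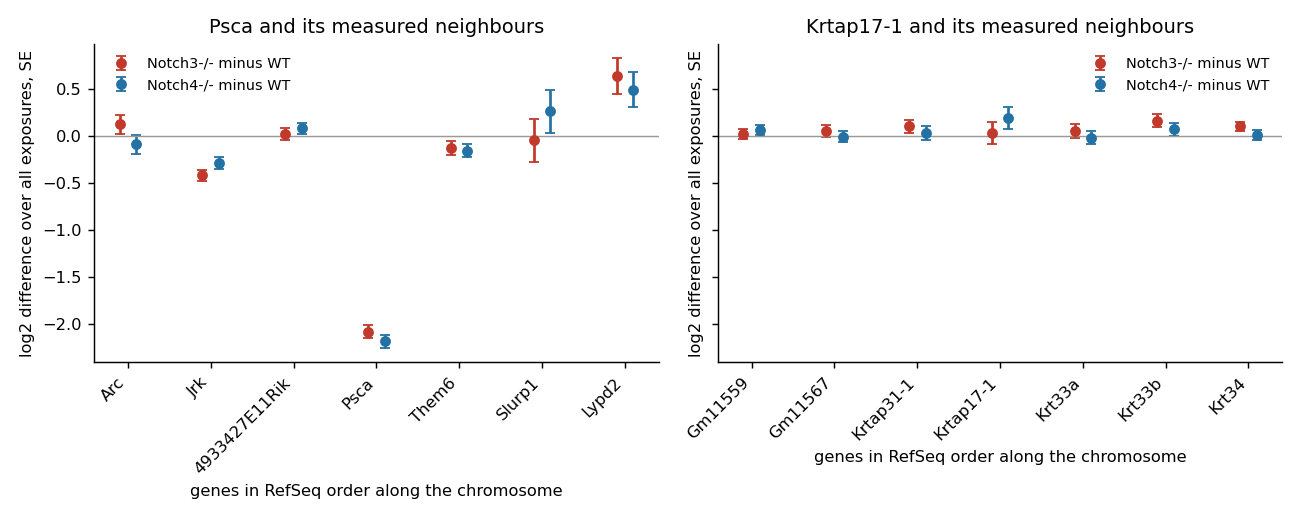
Difference between knockout and WT mice averaged over air and 3 ozone times (vertical axis, log2, bars are SE) for *Psca*, *Krtap17-1* and the 3 measured genes on either side of each, in RefSeq order along the chromosome (horizontal axis, not to scale). *Psca* stands at -2.08 and -2.18 between neighbours at -0.42 to 0.63, and *Krtap17-1* lies among its neighbours near 0.

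Of 28 other measured Ly6/uPAR genes, 0 passed in any of the 9 comparisons of ozone with air by limma or by the ANOVA with Tukey's test that the study's methods name (26 of 252 limma tests had an unadjusted p under 0.05), where 7.89% of 18193 genes passed at least once. The fit with array weights called 8 of the 28, that after another quantile normalization 1, and that without *Notch4-/-* air replicates 1 and 2 called 2. Their 48 hr changes in WT mice ran from -0.86 for *Lypd2* to 0.49 for *Ly6i*, and *Psca* at 1.60 lay above all of them. *Psca* was chosen on its ozone responses, so its place above them follows in part from that choice. The family did hold genes that differed between genotypes over all exposures. In *Notch3-/-* mice *Ly6i* (0.35, SE 0.10, limma adjusted p = 0.027) and *Lynx1* (0.35, SE 0.09, adjusted p = 0.013) were higher than in WT mice, and *Ly6k* (-0.68, SE 0.13, adjusted p = 0.0013), *Lypd6* (-0.50, SE 0.09, adjusted p = 0.00036) and *Cd59a* (-0.42, SE 0.10, adjusted p = 0.0067) lower. Cd59a protects cells from complement, and Lynx1 and Lypd6 act on nicotinic receptors.

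In *Notch4-/-* mice *Lynx1* (0.33, SE 0.09, limma adjusted p = 0.021) and *Ly6d* (0.65, SE 0.19, adjusted p = 0.043) were higher, and *Ly6k* (-0.79, SE 0.13, adjusted p = 0.00024) and *Lypd6* (-0.43, SE 0.09, adjusted p = 0.0027) lower. So 5 of 28 family genes (17.9%) passed in *Notch3-/-* and 4 of 28 (14.3%) in *Notch4-/-* mice, where 6.97% and 6.67% of all genes did, and the lines share their WT mice. Without *Notch4-/-* air replicates 1 and 2 *Lynx1* no longer passed in *Notch4-/-* mice (0.21, adjusted p = 0.16), and *Ly6d*, *Ly6k* and *Lypd6* did (0.87, -0.86 and -0.46). The family medians were 0.05 and 0.04, against 0.01 and 0.00 over all genes. The differences of *Psca*, -2.08 and -2.18, were outside the range of the family in both lines (-0.68 to 0.63 and -0.79 to 0.65). They include the ozone times on which *Psca* was chosen, so their distance from the family follows in part from that choice. Averaged over genotypes *Plaur*, the urokinase receptor, rose after 24 hr (0.42, SE 0.08, adjusted p = 0.0020) and 48 hr (0.32, SE 0.08, adjusted p = 0.0077), and *Ly6i*, *Ly6g6e* and *Tex101* rose after 48 hr by 0.45, 0.29 and 0.19 (adjusted p = 0.0079, 0.047 and 0.043; 10.7% of probe sets called). With *Notch4-/-* air replicates 1 and 2 left out *Ly6g6e* did not pass (adjusted p = 0.096).

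Nicotinic acetylcholine receptor subunits, on which Ly6/uPAR proteins act, were measured for 15 genes, and 3 (20.0%) passed in at least 1 ozone comparison, beside 7.89% of all genes. *Chrna7*, the subunit of the homomeric receptor found also on macrophages and epithelial cells, rose in *Notch4-/-* mice after 24 hr by 2.43 (SE 0.38, limma adjusted p = 0.0014; 1.39% of probe sets called), and in *Notch3-/-* mice by 1.55 after 24 hr (SE 0.38, adjusted p = 0.027; 2.72% called) and by 1.89 after 48 hr (SE 0.38, adjusted p = 0.0043). Its changes in WT mice, 1.72 after 24 hr and 1.38 after 48 hr (SE 0.38, adjusted p = 0.073 and 0.058) did not pass, and no response difference of the family passed by limma (4 of 90 tests at an unadjusted p under 0.05) or by the ANOVA. *Chrnb1* rose in *Notch4-/-* mice after 48 hr (0.51, SE 0.13, adjusted p = 0.029) and *Chrnd* fell in *Notch3-/-* mice after 24 hr (-0.43, SE 0.11, adjusted p = 0.027), both subunits of the receptor of muscle. Without *Notch4-/-* air replicates 1 and 2 *Chrna7* in *Notch4-/-* mice after 24 hr was at 3.27 (SE 0.50, adjusted p = 0.00061) and *Chrnb1* did not pass (0.59, SE 0.18, adjusted p = 0.098). The ANOVA with Tukey's test called 0 of the 15 genes.

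Of 37 other keratin-associated protein genes, 0 passed in any ozone comparison by limma or by the ANOVA (42 of 333 limma tests had an unadjusted p under 0.05), beside 7.89% of all genes. The fit with array weights called 10 of the 37, that after another quantile normalization 3, and that with the replicate block 1. Likewise 0 passed between a knockout line and WT over all exposures by limma (2 of 37 in *Notch3-/-* and 1 of 37 in *Notch4-/-* mice at an unadjusted p under 0.05). Their 24 hr changes in WT mice ran from -0.31 for *Krtap12-1* to 0.35 for *Krtap7-1*, with a median of -0.06 against -0.02 over all genes, and *Krtap17-1* at -1.56 lay below all of them. Their 24 hr response differences from WT mice ran from -0.41 to 0.29 in *Notch3-/-* and from -0.30 to 0.40 in *Notch4-/-* mice, beside 2.11 and 1.18 for *Krtap17-1*. *Krtap17-1* was chosen on such responses, so its place outside the range of the others follows in part from that choice. Averaged over genotypes 5 of the 37 fell after 6 hr (*Krtap5-1* -0.57, *Krtap31-1* -0.42, *Krtap26-1* -0.32, *Krtap5-2* -0.26 and *Krtap3-1* -0.25), which is 13.5% beside 2.93% of all genes in either direction (403 of 18193 genes fell), and *Krtap5-2* and *Krtap3-1* did not pass without *Notch4-/-* air replicates 1 and 2. After 24 hr 1 fell and after 48 hr 2 (2.7% and 5.41%, beside 6.44% and 12.7% of all genes), and 0 rose. The 6 hr share was like that of other lists, at 14.6% of keratins, 13.3% of nicotinic subunits, 17.6% of squamous and 14.3% of thymus genes, all falls. It was 5.26% of hair genes and 0 of Ly6/uPAR, airway secretory, skeletal and cardiac muscle genes. The keratin list shares genes with the squamous and hair lists.

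**Figure D4:**
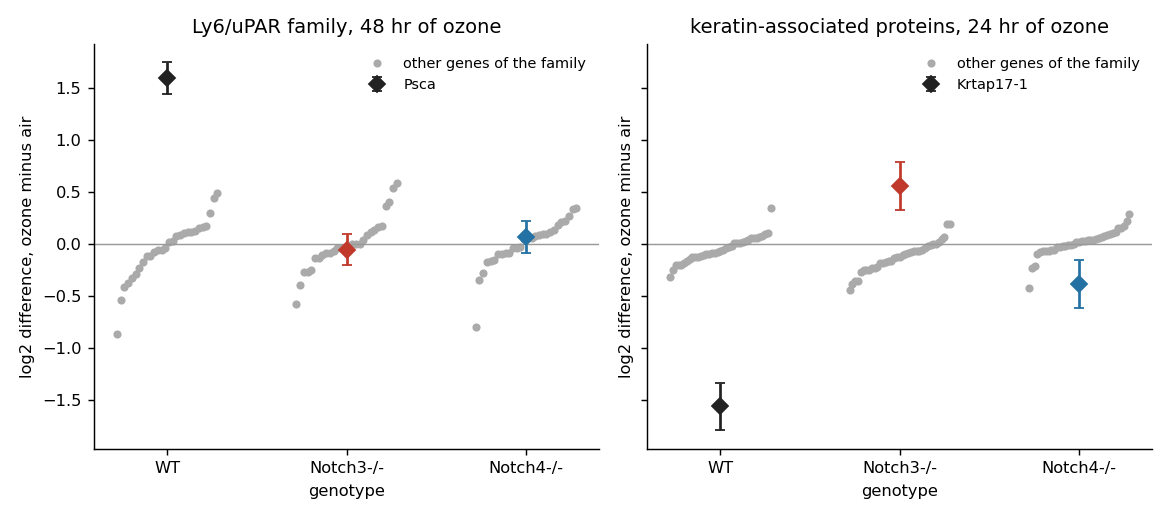
Log2 ozone change in WT, *Notch3-/-* and *Notch4-/-* mice (horizontal axis) of *Psca* and 28 other Ly6/uPAR genes after 48 hr (left) and of *Krtap17-1* and 37 other keratin-associated protein genes after 24 hr (right); grey points are the other genes in order of their change, diamonds the named gene with its SE. In WT mice *Psca* at 1.60 and *Krtap17-1* at -1.56 lie outside the range of their families, which follows in part from their choice on such responses.

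Of 48 keratin genes 5 (10.4%) passed in at least 1 ozone comparison, 4 upward and 1 downward, beside 7.89% of all genes. Array weights gave 17 calls and the ANOVA 1. *Krt19*, *Krt18* and *Krt8* rose in all 3 genotypes after 48 hr, *Krt19* by 0.82 in WT (where 1.89% of probe sets were called), 1.01 in *Notch3-/-* and 0.72 in *Notch4-/-* mice (SE 0.15, limma adjusted p = 0.0014, 9.4e-05 and 0.0067). *Krt18* rose by 0.90, 0.85 and 0.65 (SE 0.16, adjusted p = 0.0013, 0.0015 and 0.027), and *Krt7* rose in WT mice by 0.55 (SE 0.13, adjusted p = 0.023). *Krt19* and *Krt18* also passed in *Notch4-/-* mice without air replicates 1 and 2 (adjusted p = 0.0018 for *Krt19*, at 1.05, and 0.0060 for *Krt18*). *Krt76*, a keratin of stratified oral epithelium that the naming rule did not pick, fell in *Notch3-/-* mice after 24 hr by -0.47 (SE 0.13, adjusted p = 0.042). The 4 risen keratins are those of simple epithelia, and none of the hair keratins passed in a comparison of ozone with air within a genotype. The share of keratins called, 10.4%, is near the 7.89% of all genes, and a difference between types of keratin was not tested.

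Of the genes of the 4 families, 0 passed in a difference of an ozone response between a knockout line and WT mice by limma or by the ANOVA, where 0.022% of genes (4 genes) passed at least once. At an unadjusted p under 0.05 there were 11 of 168 limma tests for the Ly6/uPAR genes, 14 of 222 for the keratin-associated proteins and 14 of 288 for the keratins, and array weights called 1 Ly6/uPAR gene and 1 keratin.

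Marker genes of other cells that a lung homogenate could hold were followed beside both genes. The mean level of 16 genes of airway secretory and mucous cells was low in the WT groups, at -1.61 after 24 hr (mice -1.80 to -1.46) and -1.40 after 48 hr (-1.64 to -1.07), against -0.40 in WT air (-1.12 to 0.51). In *Notch3-/-* air mice, where *Krtap17-1* was low in replicate 1, it was -1.02 in that mouse and 1.58 and 0.21 in replicates 2 and 3. After 24 hr it was -0.02 to 1.36 in *Notch3-/-* and -1.47 to 1.71 in *Notch4-/-* mice. The *Krtap17-1* levels were -1.45 to -1.21 in the WT 24 hr mice and -0.18 to 0.32 in the WT 48 hr mice. WT 6 hr replicates 2 and 3 had marker levels of -1.03 and -1.50 beside *Krtap17-1* levels of 0.23 and 0.34. *Notch4-/-* 24 hr replicates 2 and 3 had marker levels of -1.34 and -1.47 beside -0.25 and -0.55. In the 9 comparisons of ozone with air within a genotype 0 of the 16 genes passed by limma or by the ANOVA and 9 with array weights (27 of 144 limma tests had an unadjusted p under 0.05). Averaged over genotypes, *Scgb3a1* (-2.29, SE 0.66, limma adjusted p = 0.039) and *Scgb3a2* (-0.22, SE 0.06, adjusted p = 0.034), secretoglobins of airway cells, fell after 24 hr, and *Cyp2f2* after 48 hr (-0.20, SE 0.06, adjusted p = 0.030), and none of these 3 passed without *Notch4-/-* air replicates 1 and 2. The part of these cells in the *Krtap17-1* values was not tested.

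**Figure D5:**
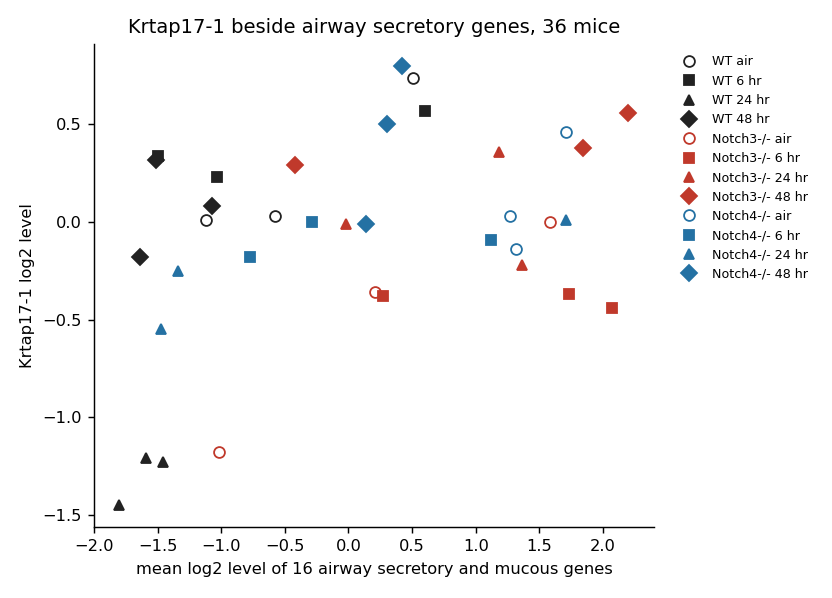
*Krtap17-1* level (vertical axis, log2) against the mean log2 level of 16 airway secretory and mucous cell genes (horizontal axis) in 36 mice; color marks the genotype and shape the exposure. The 3 WT 24 hr mice lie at the lower left, and the WT 48 hr mice, with marker levels of -1.64 to -1.07, lie higher on the vertical axis.

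Hair shaft and root sheath genes (19 measured), the cells in which Krtap17-1 is known, had group means from -0.09 to 0.06. Within a genotype 0 of 19 passed with ozone by limma or the ANOVA and 6 with array weights (15 of 171 limma tests had an unadjusted p under 0.05). Averaged over genotypes *Krt83* fell after 6 hr (-0.27, SE 0.05, limma adjusted p = 0.0077) and *Krt33b* after 24 hr, as given above, both hair keratins. Among 17 genes of stratified squamous epithelium, *Sprr1a*, a cornified envelope precursor, rose in WT mice after 24 hr by 2.71 (SE 0.46, limma adjusted p = 0.0053; 0.104% of probe sets called) and after 48 hr by 3.90 (SE 0.46, adjusted p = 1.2e-05), and after 48 hr by 3.11 in *Notch3-/-* and 2.35 in *Notch4-/-* mice (SE 0.46, adjusted p = 0.00014 and 0.0060). In *Notch3-/-* mice *Sprr1a* also rose after 24 hr by 2.68 (SE 0.46, limma adjusted p = 0.0016), and its *Notch4-/-* change at 24 hr, 1.49, did not pass. *Dsc3* rose in *Notch3-/-* mice after 48 hr by 0.42 (SE 0.10, adjusted p = 0.018), and the other 15 did not pass within a genotype, while array weights gave 6 calls and the ANOVA 1. Without *Notch4-/-* air replicates 1 and 2 *Sprr1a* stood at 4.14 in *Notch4-/-* mice after 48 hr (SE 0.42, adjusted p = 3.5e-06). Averaged over genotypes *Krt4* (-0.30), *Krt6b* (-0.28) and *Sprr1a* (-1.02) fell after 6 hr and *Krt6b* (-0.24) after 24 hr, of which *Sprr1a* did not pass without those mice (-0.43, adjusted p = 0.23). *Sprr1a* rose on the same average by 2.29 after 24 hr and 3.12 after 48 hr (adjusted p = 2e-06 and 4.3e-09), and *Krt1* was higher in *Notch3-/-* than in WT mice by 0.28 (adjusted p = 0.039). Skeletal muscle genes (12), cardiac muscle genes (9) and thymus genes (7) had 0 calls by limma or the ANOVA in the ozone comparisons within a genotype, with 20 of 108, 8 of 81 and 10 of 63 tests at an unadjusted p under 0.05, and array weights called 1, 4 and 2 genes. Averaged over genotypes *Foxn1*, a transcription factor of thymus epithelium, fell after 6 hr (-0.43, adjusted p = 0.0029) and 48 hr (-0.25, adjusted p = 0.022). *Myh7*, a myosin heavy chain of heart, was lower over all exposures in *Notch3-/-* (-0.86, SE 0.14, adjusted p = 0.00018) and *Notch4-/-* mice (-1.13, SE 0.14, adjusted p = 4.4e-06) than in WT mice. The 9 cardiac genes had medians of 0.11 and -0.01 in these comparisons, and *Nppa* stood highest, at 2.64 and 2.72, without passing. Skeletal muscle genes were high in *Notch3-/-* air replicate 3 (mean level 3.51), which was not the *Notch3-/-* mouse with low *Krtap17-1*, and stood at 1.33 in WT 24 hr replicate 3 against -0.19 and -0.02 in the other WT 24 hr mice, and the part of these tissues in the values was not tested.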

How the data were processed

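Total RNA of snap-frozen lung was hybridized to 36 Affymetrix arrays, 1 mouse each. The authors summarized the probe sets by robust multiarray average (RMA, with background correction, quantile normalization and log2) in GeneSpring GX and deposited log2 values for 45101 probe sets. Each probe set proved to be centred on its median over the 36 arrays, which the sources used here do not describe, so differences are unaffected and brightness is lost. Array medians lay between -0.0276 and 0.0279. The 64 control probe sets of the manufacturer were not used, and 0 columns of values were left unassigned. The number of arrays, 3 per group, limits the precision.

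Linear models with 1 mean per group were fitted to the remaining 45037 probe sets over all 36 arrays (limma 3.58.1, eBayes, under R 4.3.3). Benjamini-Hochberg adjustment ran over the whole array for each comparison, and the threshold was 0.05. The limma p-values set a difference against the spread among mice of the same group, pooled over the groups and moderated across probe sets. Air mice were exposed in a separate chamber, so ozone and chamber cannot be told apart. The fit was tested on simulated data. A platform annotation gave 1 symbol for 34945 probe sets, several for 932 and none for 9160, and 34741 were matched to RefSeq by gene ID. Where a gene has several probe sets, the one with the most specific suffix and then the lowest number stood for it.

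Both genes and all gene lists were chosen with earlier results of these data known. Named genes are the 5 with the highest Pearson r to each gene over 36 arrays, the 3 measured genes on either side, and up to 4 genes of each list by the number of ozone comparisons passed. Lists were Ly6/uPAR, nicotinic receptor subunits, keratin-associated proteins, keratins, and markers of squamous epithelium, airway secretory cells, hair, skeletal and cardiac muscle and thymus. Alternatives were another quantile normalization, median centring, array weights, a trended and robust prior, the replicate number as a block, the methods' ANOVA with Tukey's test, fewer arrays, any probe set of a gene, and each array left out. A test of the genes' ozone changes averaged over genotypes was planned and is not given, since the averages hold the changes the genes were chosen on. A fit without *Notch4-/-* air mice 1 and 2 together was added after seeing the data.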

Additional observations from a re-analysis of the deposited data

Results flagged for a closer look

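In 4 differences of an ozone response every ozone mouse of one genotype moved one way from the air mean and every ozone mouse of the other genotype moved the opposite way. They are the *Krtap17-1* responses of *Notch3-/-* against WT mice after 24 hr (2.11), of *Notch3-/-* against *Notch4-/-* mice after 24 hr (0.94) and after 6 hr (0.32), and the *Psca* response of *Notch3-/-* against WT mice after 24 hr (-0.66). These differences were not tested, since the genes were chosen on them. Without *Notch3-/-* air replicate 1 the 6 hr value of *Krtap17-1* was -0.007. Its 24 hr values were then 1.78 against WT and 0.60 against *Notch4-/-* mice. *Notch3-/-* 24 hr replicate 3 (-0.22) lay below the mean of air replicates 2 and 3 (0.00 and -0.36), so the 24 hr mice no longer all moved one way. *Notch4-/-* 24 hr replicate 1 (0.01) and 6 hr replicates 1 and 2 (-0.09 and 0.00) lay above *Notch4-/-* air replicate 3 (-0.14).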

How the results depend on the processing

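Quantile normalization once more moved *Psca* in WT mice to -0.29 after 6 hr and 1.19 after 48 hr, its response differences from WT to -0.11 (*Notch3-/-*, 6 hr), -1.24 (*Notch3-/-*, 48 hr) and -1.08 (*Notch4-/-*, 48 hr), and its air differences to -1.59 and -1.79. It called 1 Ly6/uPAR and 3 keratin-associated genes with ozone. Array weights moved *Krtap17-1* to 0.86 (*Notch3-/-*, 24 hr), its 24 hr difference from WT to 2.47 and the differences between the knockout lines to 0.72, 1.46 and 1.04, and called 8 Ly6/uPAR, 10 keratin-associated and 17 keratin genes with ozone and 1 Ly6/uPAR and 1 keratin gene in response differences. Without *Notch4-/-* air mice 1 and 2 together there were 2 Ly6/uPAR calls. The ANOVA called 1 of 48 keratins and 0 of 15 nicotinic subunits with ozone. The causes were not tested.

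With 1 array left out, the *Krtap17-1* changes of *Notch3-/-* mice ran from -0.21 to 0.38 (6 hr), 0.23 to 0.81 (24 hr) and 0.60 to 1.18 (48 hr), its differences from WT from -0.33 to 0.26, 1.78 to 2.37 and 0.78 to 1.37, those from *Notch4-/-* from -0.007 to 0.58, 0.60 to 1.19 and 0.28 to 0.87, and its air difference from -1.03 to -0.44. Ly6/uPAR calls ran from 0 to 1 and keratin-associated calls from 0 to 2.

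Replicate numbers are shared by the groups, and the labels do not say what a number marks. The mean correlation of deviations was 0.0668 between arrays of the same number and -0.0327 between others, 89 of 198 pairs exceeded 0.1, and 25 of 36 arrays correlated best with an array of their own number. With the replicate block 1 keratin-associated gene was called with ozone instead of 0, and no other call on *Psca*, *Krtap17-1* or the lists changed by over 1.5 times. Over the other alternatives 536 of 568 values and counts of calls were taken as unchanged. For a tested difference this means the same side of the threshold, and no change of sign if it had passed. An untested difference had to move by less than the SD within groups of its gene. A count of calls had to change by no more than 1.5 times. Signal over background cannot be read from centred values.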
